A study of Mus musculus with 39 samples.

Results

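Gene expression in control bone marrow was compared with that in control spleen of the same mouse strain. The comparison used 11 of the 39 arrays of the series, 3 of bone marrow and 8 of spleen. They were chosen by their labels alone, as all bone marrow and spleen arrays of the vehicle arm at 2 hours. The tissues came from B6C3F1 mice, the offspring of C57BL/6 and C3H parents, killed under ketamine and acepromazine anaesthesia. The sample titles call these arms vehicle, the treatment label calls them control, and no substance is named. Marrow came from the right humerus, and the spleen sample was a part of a cross-section, so both are whole tissues with no cell sort. Marrow RNA was isolated with a PAXgene bone marrow kit and spleen RNA on Qiagen columns, so the isolation method and the tissue cannot be told apart. Age and sex are not given in the sources used here. The labels do not say whether the arrays of a tissue, or arrays of the same number, came from separate mice, so a p-value speaks only of variation among these arrays, which may be technical.

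Bone marrow is the main site where blood cells are made in the adult mouse, from stem cells held by stromal and bone-lining cells, and it stores maturing neutrophils. The spleen filters blood through a red pulp rich in macrophages and sinusoids, and holds a white pulp of B cell follicles and T cell zones built on a fibroblastic stroma. The mouse spleen also keeps some blood formation in adult life, above all of red cells. In whole tissues, fewer cells of a type and less RNA per cell cannot be told apart.

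Values are log2 intensities after quantile normalization of the 11 arrays together, with 1 probe set per gene. Arrays of a tissue were alike, with Pearson correlations over the genes tested of 0.9923 to 0.9962 among the bone marrow arrays, 0.9324 to 0.9934 among the spleen arrays and 0.8164 to 0.8854 between tissues. The median SD of a gene was 0.093 in bone marrow and 0.162 in spleen. Spleen array 5 stood apart by pancreatic acinar genes. The 10 members measured had a median level of 12.99 in it, against 4.71 to 4.99 in the other 7 spleens, with bone marrow at 5.27 to 5.60. Spleen array 4 had the highest adipocyte genes, with a median of 8.40 against 5.04 to 7.32 in the other spleens and 7.43 to 7.82 in bone marrow. In that array Adipoq, the fat hormone adiponectin, was at 10.20 and Fabp4, a fatty acid carrier, at 11.10. Markers of mesothelium, the covering layer of the spleen, also varied, with Upk3b at 5.65 to 10.43 over the 8 spleens. Skeletal muscle genes in turn were mostly higher in bone marrow, with Acta1 at 9.21, 9.22 and 7.83 against 5.91 to 6.54 in spleen. Of 10 tested 7 were called higher and 2 lower, with log2 differences, bone marrow minus spleen, from -1.23 to 2.54. The 5 left out of the test as dim differed by 0.212 to 3.74. The part of such neighbouring tissue in other results was not tested.

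Of 12735 genes tested, limma called 3943 higher and 3987 lower in bone marrow at an adjusted p under 0.05, which is 31.0% and 31.3% of all genes, and 62.3% in either direction. At least 2-fold differences were called for 973 genes higher (7.64%) and 1106 lower (8.68%). The groups did not overlap for 52.6% of the genes tested. With so many calls, a count of called members means little by itself, and each list below is read against these shares and against the median log2 difference of all genes, 0.028. All differences are bone marrow minus spleen. The files give no detection call, so where 1 tissue is near the dim end of the array the log2 difference is given without a fold, and may understate the change. The direction of small differences rests on the scaling. On the deposited values 6275 genes were called higher and 2703 lower, a higher share of 69.9% of the calls against 49.7% after joint normalization, and the median of all genes was 0.246. With arrays centred on their medians the share was 64.6% and the median 0.182. A gene within about that shift of 0 has no settled direction, and some lists moved further. On the deposited values the immediate early median went from -0.363 to 0.067 and the oxidative phosphorylation median from 0.129 to 0.560. A difference somewhat beyond the shift is therefore not settled by its size alone. A gene's other probe sets can also differ from the one used. Of the genes called below, Bcl11a, Cd80, Cxcl12, Egr3, Fosl2, Igfbp7, Igll1, Myh11, Ubash3a and Vcam1 had another probe set of the opposite sign.

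The largest differences fell on genes known from a few cell types and structures. Eosinophil and neutrophil granule genes, the pre-B cell gene Vpreb1 and the bone matrix collagen gene Col11a1 were among the 15 largest positive differences. Genes of the spleen's follicles, stroma and marginal zone were among the 15 largest negative ones. The first set ran from 5.28 for Sgms2 to 6.99 for Epx. The second ran from -4.55 for Plekha6 to -8.55 for Cxcl13. The plot of leading genes per array shows that the 3 bone marrow arrays and the 8 spleen arrays are apart for each gene drawn.

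**Figure D1:**
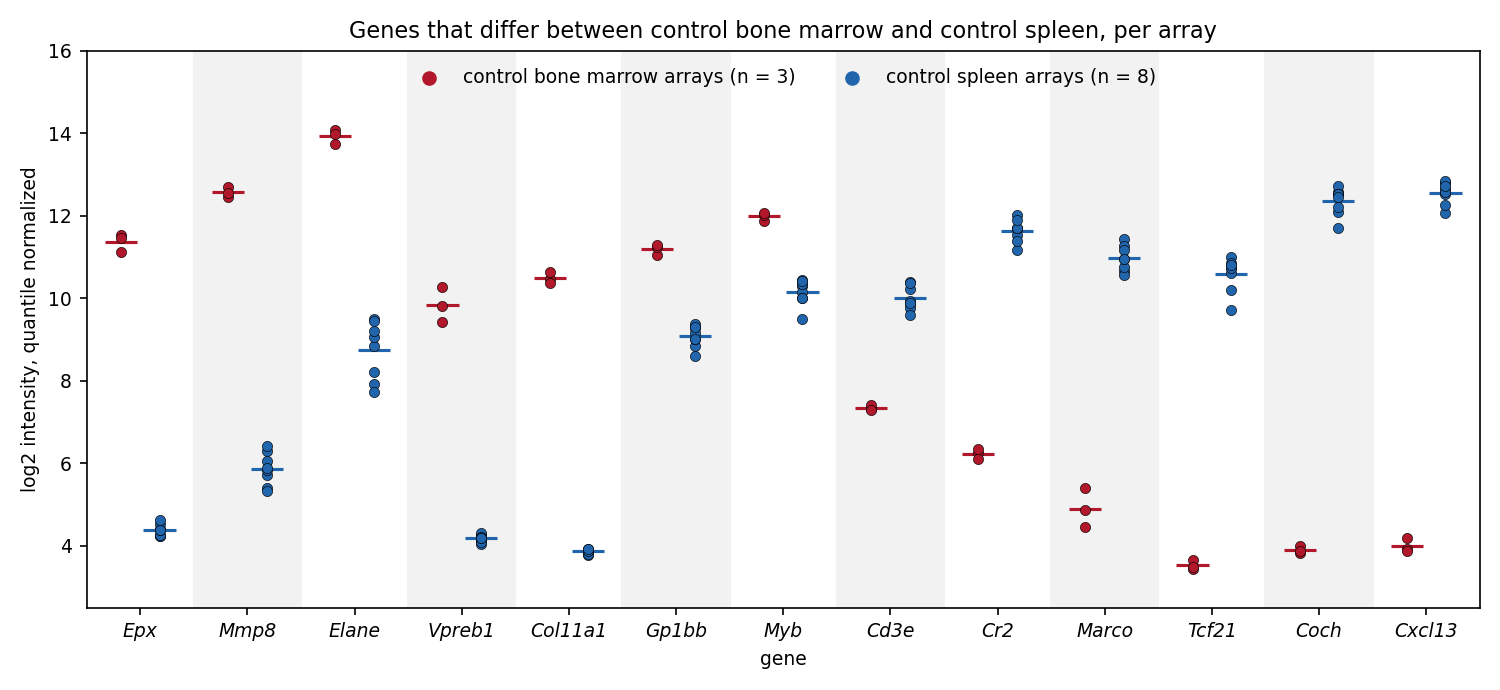
Log2 intensity after quantile normalization (vertical axis) of 13 genes (horizontal axis) in each control bone marrow array (red, left of each pair, n = 3) and each control spleen array (blue, right, n = 8); short lines are means. Points of the tissues do not overlap for any of these genes, and the smallest differences drawn are 1.84 for Myb among higher genes and -2.65 for Cd3e among lower ones.

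Neutrophil granule genes were higher in bone marrow. Primary granules are filled at the promyelocyte stage with proteases and myeloperoxidase, secondary and tertiary granules are filled later, and the mature cell then shuts these genes off, so their transcripts mark precursors. Of 9 primary granule genes 8 were called higher and 0 lower, with a median of 5.06. The member not called was Ctsc, which encodes the protease that activates granule proteases, at -0.20. All 14 secondary and tertiary granule genes were called higher, with a median of 4.73. Elane, which encodes neutrophil elastase, was at 14.09, 13.74 and 13.98 in bone marrow, against a lowest value of 7.72, a median of 8.95 and a highest of 9.50 in spleen. The log2 difference was 5.20 ± 0.37 (SE, adjusted p = 1.14e-07), or 36.7-fold. Each bone marrow array stood far above the highest spleen, and the spleens were spread more widely than the bone marrow arrays.

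The myeloperoxidase gene Mpo differed by 5.06 ± 0.41, the proteinase 3 gene Prtn3 by 5.07 ± 0.36 and the cathepsin G gene Ctsg by 5.26 ± 0.39 (log2 difference and SE). Among later granule genes, Mmp8, neutrophil collagenase, was at 12.70, 12.47 and 12.56 in bone marrow and at 5.32 to 6.43 with a median of 5.87 in spleen. Its log2 difference was 6.71 ± 0.21 (adjusted p = 1.12e-10), with the spleen values near the dim end. Ltf, which encodes lactoferrin, was at 14.51, 14.32 and 14.40 in bone marrow and at 8.70 to 10.56 with a median of 9.45 in spleen, 30.1-fold apart. Olfm4, a granule protein carried by a subset of neutrophils, was higher by 6.91 on the log2 scale, and Cd177, a neutrophil surface protein, by 6.08. Ngp and Camp, which encode a neutrophilic granule protein and cathelicidin, differed by 3.38 ± 0.39 and 4.03 ± 0.42.

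Genes of mature neutrophils differed less. All 15 tested were called higher in bone marrow, with a median of 2.15. The calprotectin subunit gene S100a9 was at 15.19, 15.11 and 15.11 in bone marrow, against 11.63, 12.38 and 13.18 as the lowest, median and highest values in spleen. Cxcr2, the chemokine receptor by which neutrophils leave the marrow, differed by 2.15 ± 0.19, and the formyl peptide receptor gene Fpr2 by 4.65 ± 0.23. The groups did not overlap for these 3 genes. The list's median lay below those of both granule lists, a comparison for which no test was made.

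The promoters of 2 primary and 2 later granule genes are shown because they are textbook targets of known myeloid regulators. PU.1, encoded by Spi1, binds cores such as GAGGAAGT, and C/EBP factors, among them the product of Cebpa, bind sites such as TTGCNNAA. Sequences are the 200 bases before the RefSeq start in GRCm38.p6, on the gene's strand, with matches on either strand in capitals. For Elane (chr10:79886112-79886311, plus strand) and Prtn3 (chr10:79879467-79879666, plus strand) the capitals mark GAGGAAGT, and for Ltf (chr9:111019092-111019291, plus strand) and Ngp (chr9:110419608-110419807, plus strand) they mark TTGCNNAA.
Elane: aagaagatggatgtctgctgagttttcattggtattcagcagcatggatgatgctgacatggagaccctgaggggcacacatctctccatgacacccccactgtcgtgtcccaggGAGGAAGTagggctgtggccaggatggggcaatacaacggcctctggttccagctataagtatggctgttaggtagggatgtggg
Prtn3: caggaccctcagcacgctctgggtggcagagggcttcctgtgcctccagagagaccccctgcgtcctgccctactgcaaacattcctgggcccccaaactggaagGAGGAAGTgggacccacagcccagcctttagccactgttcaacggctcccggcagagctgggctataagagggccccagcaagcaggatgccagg
Ltf: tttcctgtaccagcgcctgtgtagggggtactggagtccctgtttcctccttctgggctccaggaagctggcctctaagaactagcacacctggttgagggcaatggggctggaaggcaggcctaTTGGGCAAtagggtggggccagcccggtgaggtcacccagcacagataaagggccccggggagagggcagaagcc
Ngp: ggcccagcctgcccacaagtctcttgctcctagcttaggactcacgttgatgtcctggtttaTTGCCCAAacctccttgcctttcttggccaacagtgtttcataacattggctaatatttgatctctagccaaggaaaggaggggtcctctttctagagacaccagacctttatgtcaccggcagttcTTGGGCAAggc

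Over the 250 bases before each gene's first start in the table, GAGGAAGT was found in 4 of 8 primary granule promoters held by the table, those of Elane, Prtn3, Mpo and Ctsc, and in 3 of 13 later granule promoters, against 2.44% of all promoters of the table. TTGCNNAA was found in 5 of 13 later granule promoters, among them Ltf, Lcn2, Ngp and Mmp8, and in 0 of 8 primary ones, against 9.55% of all. Over all genes called at least 2-fold higher or lower, the shares were close, 8.79% and 9.7% for TTGCNNAA and 4.08% and 4.12% for GAGGAAGT. Other motifs were searched, and not all are given here. Motifs were counted separately and may share bases. A match describes the letters of the window and not binding.

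Genes of myeloid regulators were mostly higher in bone marrow. Gfi1, a repressor needed for neutrophil differentiation, was at 9.43, 8.95 and 9.04 in bone marrow, against 6.04 to 6.35 with a median of 6.27 in spleen. It differed by 2.89 ± 0.10 (adjusted p = 2.27e-10). Cebpa and Spi1 were each 1.93-fold higher (adjusted p = 4.68e-05 and 0.000594). Csf1r, the macrophage growth factor receptor, and Irf8, a factor of monocytes and dendritic cells, were lower in bone marrow, by -1.23 ± 0.12 and -1.02 ± 0.14. Of 11 genes of this list 9 were higher and 2 lower.

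Monocyte genes were mostly higher in bone marrow. Of 11 tested 7 were higher and 2 lower, with a median of 0.85. Ccr2, the receptor by which classical monocytes leave the marrow, was at 11.54, 10.84 and 11.27 in bone marrow, against 8.60 to 9.38 in spleen. F13a1, a coagulation factor subunit made by monocytes, was higher in bone marrow by 3.91 on the log2 scale. Nr4a1, which nonclassical monocytes need, was lower, at 7.74, 7.79 and 7.95 in bone marrow against 8.66 to 9.44 in spleen. It is also a member of the immediate early list.

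Eosinophil genes held the largest positive differences among all genes tested. Epx, eosinophil peroxidase, was at 11.54, 11.46 and 11.12 in bone marrow, against a lowest of 4.24, a median of 4.38 and a highest of 4.64 in spleen. The log2 difference was 6.99 ± 0.11 (adjusted p = 5.15e-13). Prg2, the eosinophil major basic protein, differed by 6.96 ± 0.21, and Mcpt8, a basophil protease, by 4.78 ± 0.12. Of 10 genes tested 8 were higher and 0 lower, with a median of 2.61. The count depends in part on the filter on dim genes, which Epx passed through bone marrow alone. The mast cell protease genes Cma1 and Tpsb2, named after their values were seen, were not called. Siglecf and Fcer1a were left out of the test as dim by their mean over all arrays, 8 of which are spleen, and differed by 3.88 and 3.64. Both were named after their values were seen. The remaining dim member of the list differed by only 0.319, with overlapping groups.

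**Figure D2:**
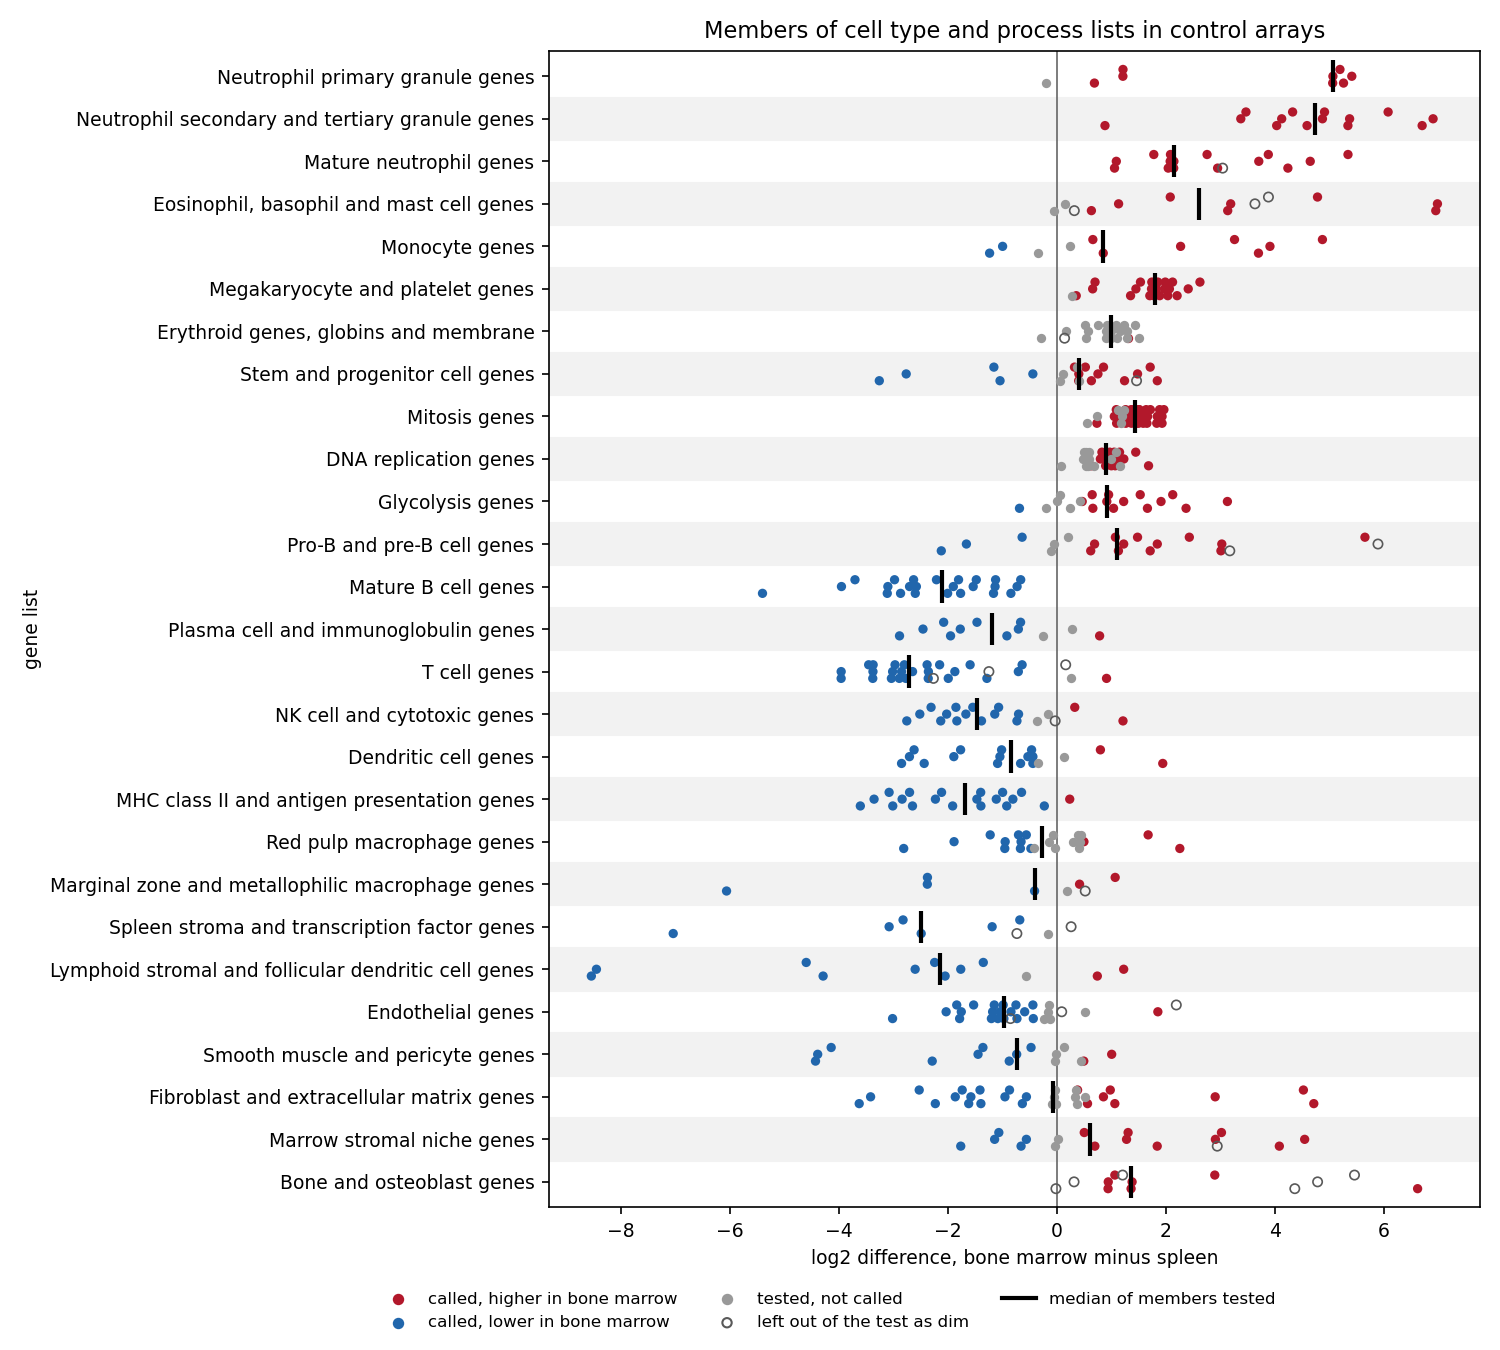
Log2 difference, bone marrow minus spleen (horizontal axis), of each member of the gene lists drawn (vertical axis) in control arrays (n = 3 and 8). Red and blue points are members called higher and lower, grey points were not called, open points were left out as dim, and black lines are medians of members tested; granule lists sit near 5, all mature B cell genes lie below 0 and matrix genes spread to both sides.

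Erythroid genes did not separate the tissues, and the spleens differed among themselves. Of 20 genes of globins and red cell membrane 1 was called higher, Slc4a1, the band 3 anion exchanger, and 0 lower, with a median of 0.998. Slc4a1 was at 13.75, 14.00 and 13.87 in bone marrow, against 11.16, 12.53 and 14.02 as the lowest, median and highest values in spleen, and the groups overlapped. Its call was lost without any 1 of the bone marrow arrays, when 0 of the 20 genes were called. Klf1, the erythroid Krüppel-like factor, was at 11.52, 12.05 and 11.96 in bone marrow and spanned 8.36 to 12.46 in spleen (log2 difference 1.01 ± 0.69, adjusted p = 0.217). Alas2, the first enzyme of heme synthesis in red cells, was not called either, at -0.23 ± 0.26. The erythropoietin receptor gene Epor differed by 0.80 ± 0.46 (adjusted p = 0.148), and was called without spleen array 2.

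The median level of the erythroid list was 11.22, 11.68 and 11.58 in the bone marrow arrays. In spleen arrays 1 to 8 it was 10.52, 11.98, 11.57, 10.47, 11.02, 9.79, 8.04 and 9.03. Spleens 2 and 3 lay at the level of bone marrow and spleens 7 and 8 well under it. Against spleens 1 to 4 alone, 0 of the 20 genes were called and the median was 0.204. Against spleens 5 to 8 alone, 17 were called higher and the median was 1.74. Without spleen 2, 9 were called higher. Heme synthesis genes had 3 of 15 called higher, and erythroid transcription factors 3 of 13 higher and 1 lower. Without spleen 2 these were 7 of 15 higher, and 7 higher and 1 lower of 13. Without bone marrow array 2 or 3, 0 of 15 heme synthesis genes were called. Of the factors called, Nfe2, which megakaryocytes also use, was higher by 1.92 ± 0.55, and Bcl11a, which B cells also use, was lower by -0.85 ± 0.12.

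Dividing-cell genes were higher in bone marrow, and like the erythroid genes they varied among the spleens. Of 36 mitosis genes 30 were called higher and 0 lower, with a median of 1.44. The mitosis list had a median level of 10.23, 10.33 and 10.11 in bone marrow. In spleens 1 to 8 it was 8.82, 10.01, 9.48, 8.77, 9.02, 8.30, 7.48 and 8.19. Spleen 2 was the highest for both lists and spleen 7 the lowest. The part of red cell precursors in the mitosis genes was not tested.

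Kif11, the kinesin that splits the spindle poles, was at 9.95, 10.06 and 9.95 in bone marrow and at 6.50 to 9.57, median 8.08, in spleen (log2 difference 1.96 ± 0.51, adjusted p = 0.00497). Cdk1, the mitotic kinase, was at 11.25, 11.25 and 11.18 in bone marrow and at 8.02 to 10.76, median 9.69, in spleen. Mki67, the proliferation marker Ki-67, missed the threshold at 1.20 ± 0.49 (adjusted p = 0.0505), and the groups overlapped. It was called without spleen array 2, 3 or 7. Of 29 DNA replication genes 16 were higher and 0 lower, with a median of 0.896, led by Cdc45, a helicase subunit, at 1.68 ± 0.36. The replication count was 11 against spleens 1 to 4, 29 against spleens 5 to 8, 25 without spleen 2, and 8 and 10 without bone marrow arrays 2 and 3. For mitosis genes it was 24 and 36 against the sets of spleens, and 20, 20 and 21 without bone marrow arrays 1, 2 and 3. Of 19 cell cycle inhibitors and quiescence genes 6 were higher, led by Cdkn2d at 1.35 ± 0.25, and 8 lower, shares near those of all genes. The lower ones were led by Klf2, a factor of resting lymphocytes, at -1.54 ± 0.17.

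**Figure D3:**
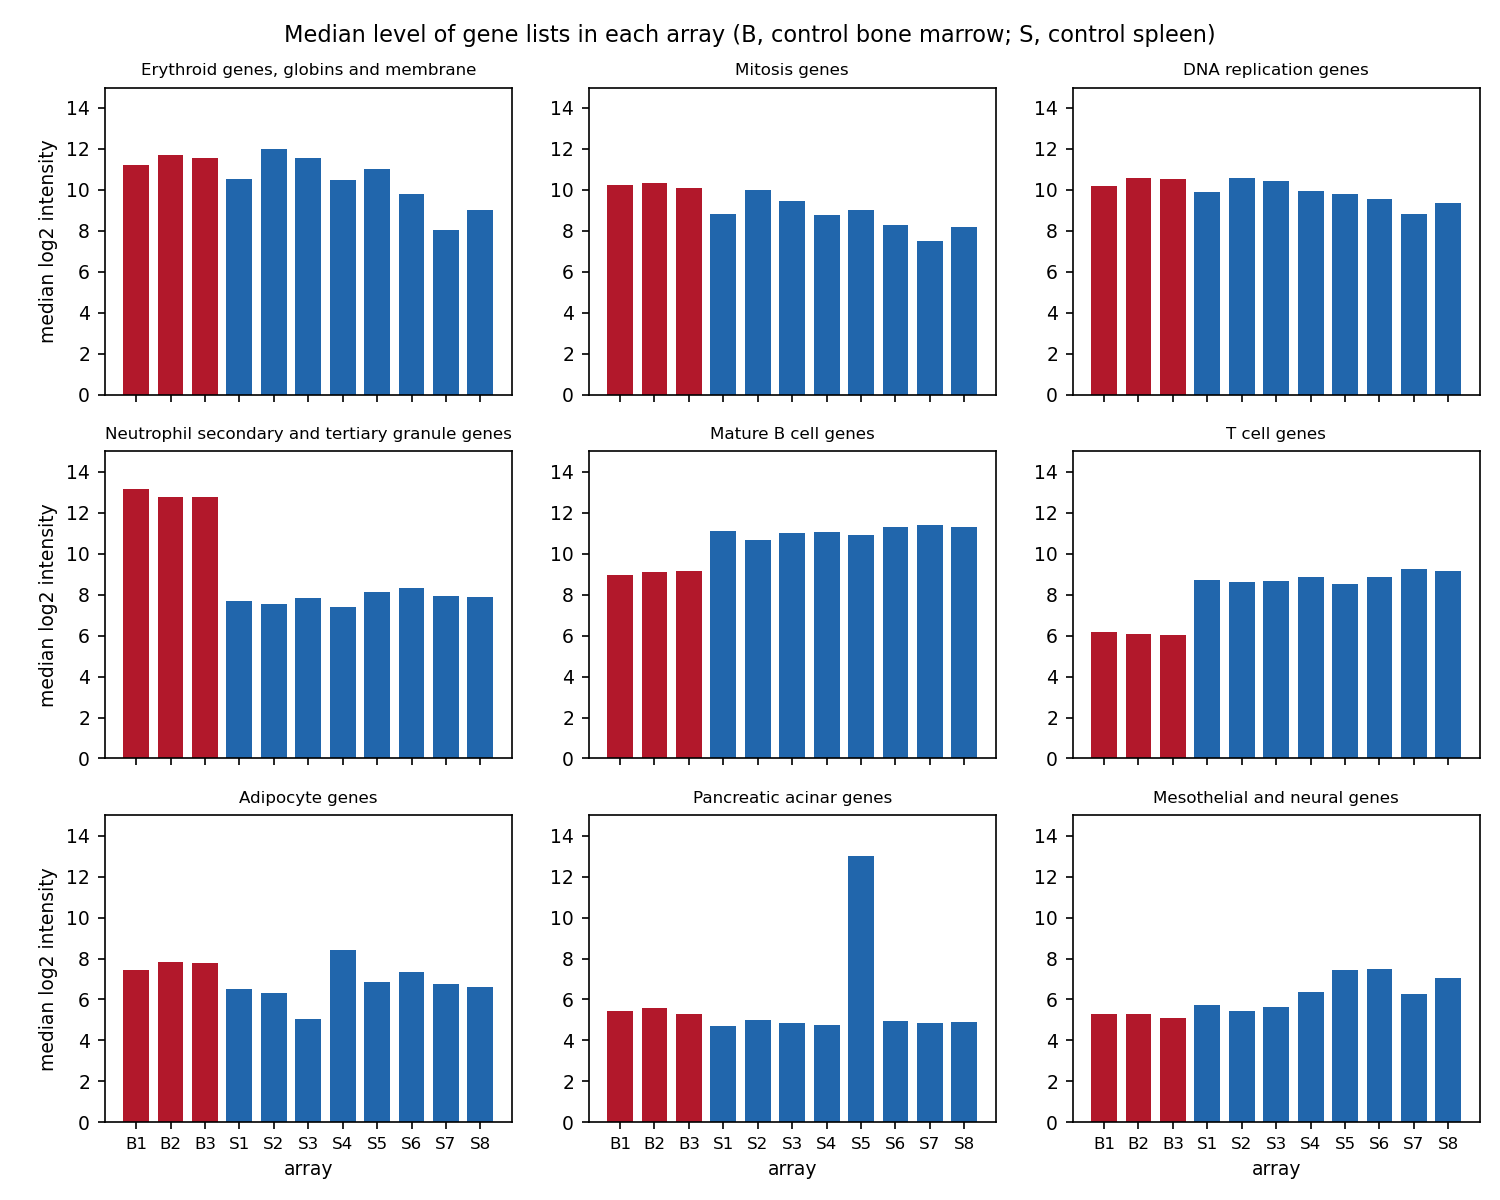
Median log2 intensity of the members of 9 gene lists (vertical axes, from 0) in each control bone marrow array (B1 to B3, red) and control spleen array (S1 to S8, blue). Erythroid, mitosis and replication levels vary among spleens from S2 down to S7, granule levels differ by tissue, and pancreatic genes reach 12.99 in S5 alone.

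The Cdk1 promoter is shown as an example of the cell cycle homology region, TTTGAA, by which MuvB complexes hold mitotic genes silent in resting cells. It is the 200 bases before the start (GRCm38.p6 chr10:69352913-69353112, minus strand), read on the gene's strand, with TTTGAA in capitals.
Cdk1: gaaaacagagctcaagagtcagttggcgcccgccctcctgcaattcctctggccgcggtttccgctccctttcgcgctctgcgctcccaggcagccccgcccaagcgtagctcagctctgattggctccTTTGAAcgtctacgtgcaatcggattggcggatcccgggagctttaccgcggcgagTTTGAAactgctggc

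TTTGAA was found on either strand in 9 of 29 mitosis promoters and 3 of 25 replication promoters, against 16.3% of all promoters of the table. Kif11 and Cdk1 are among the mitosis genes that hold it.

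Megakaryocyte and platelet genes were higher in bone marrow with little spread. Of 22 tested 21 were called higher and 0 lower, with a median of 1.80. Itga2b, the platelet integrin αIIb, was at 10.97, 11.04 and 11.14 in bone marrow, against 8.82 to 9.59 with a median of 9.36 in spleen. Pf4, platelet factor 4, differed by 1.53 ± 0.14 and Gp1bb, a subunit of the von Willebrand factor receptor, by 2.12 ± 0.15 (adjusted p = 9.32e-07 and 1.08e-07). Rab27b, which serves granule secretion, had the largest difference, 2.63 ± 0.13. Spleens were close together for these genes, unlike for the erythroid ones.

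Stem and progenitor genes went both ways. Of 20 tested 11 were higher and 5 lower, with a median of 0.40. Myb, a factor of dividing progenitors, was at 11.88, 12.01 and 12.07 in bone marrow, against 9.49 to 10.44 in spleen, a difference of 1.84 ± 0.17. Kit, the stem cell factor receptor, differed by 0.52 ± 0.10, and Cd34 was not called at 0.37 ± 0.25. Procr and Fgd5, which mark stem cells in marrow and are also made by endothelium, were lower, by -3.26 ± 0.11 and -2.77 ± 0.12. Both fell together with the endothelial genes given below, and the part of vessels in these values was not tested.

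B cell genes differed by the stage they mark. Precursor genes were higher in bone marrow, where B cells are made, and every mature B cell gene tested was lower. Vpreb1, a part of the surrogate light chain of pre-B cells, was at 9.42, 10.28 and 9.81 in bone marrow, against 4.05 to 4.31 with a median of 4.19 in spleen. The log2 difference was 5.66 ± 0.13 (adjusted p = 1.65e-11). Dntt, which adds bases at the joints of immunoglobulin heavy chain genes, differed by 3.03 ± 0.20, Igll1 by 3.01 ± 0.17 and the recombinase gene Rag2 by 2.43 ± 0.17. Rag1 was dim over all arrays and not tested, with means of 9.50 in bone marrow and 3.60 in spleen.

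Of 18 precursor genes 12 were higher and 3 lower, with a median of 1.10. The 3 that were lower, Lef1, Blnk and Il7r, are also used by T cells or mature B cells. Lef1 was at 7.03, 7.63 and 7.38 in bone marrow, against 9.01 to 9.98 in spleen. Blnk, a linker under the B cell receptor, differed by -1.66 ± 0.17. Il7r, the receptor that precursor B cells and T cells share, differed by -0.64 ± 0.21 (adjusted p = 0.017), its groups overlapped, and the call was lost without bone marrow array 1.

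All 24 mature B cell genes were called lower in bone marrow, with a median of -2.11. Cr2, the complement receptor of follicular B cells and follicular dendritic cells, was at 6.25, 6.35 and 6.10 in bone marrow, against a lowest of 11.18, a median of 11.69 and a highest of 12.03 in spleen. It was 42.4-fold lower (log2 difference -5.41 ± 0.15, adjusted p = 5.48e-11). Cxcr5, which guides B cells to follicles, differed by -3.96 ± 0.17, Fcer2a, the B cell IgE receptor CD23, by -3.71 ± 0.14 and Ms4a1, which encodes CD20, by -3.12 ± 0.16. Of 10 marginal zone B cell genes 7 were lower, with a median of -1.83. The Notch2 target Dtx1 led the marginal zone genes after Cr2, at -4.17 ± 0.20. Cd9 and Plac8 of that list were higher, and both are also made by other blood cells of the marrow. Cd9 is a member of the megakaryocyte list.

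Plasma cell genes were lower on balance, with 9 of 12 lower, 1 higher and a median of -1.19. Jchain, which joins polymeric antibodies, was at 10.76, 11.18 and 11.21 in bone marrow, against 13.28 to 13.82 in spleen. Prdm1, the plasma cell factor Blimp-1, differed by -1.47 ± 0.14. Sdc1 and Xbp1, a surface marker and a secretory factor of plasma cells, were not called, at 0.28 ± 0.17 and -0.26 ± 0.14. Sdc1 was called without bone marrow array 1 and Xbp1 without spleen array 2.

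T cell genes were lower in bone marrow almost throughout. Of 26 tested 24 were lower and 1 was higher, with a median of -2.71. Cd3e, a chain of the T cell receptor complex, was at 7.33, 7.41 and 7.31 in bone marrow, against 9.60 to 10.39 with a median of 9.91 in spleen (log2 difference -2.65 ± 0.16, adjusted p = 2.86e-08). Cd3g and the T cell factor Bcl11b differed most, each by -3.96. Cd8b1, a chain of the coreceptor of cytotoxic T cells, differed by -3.38 ± 0.15. Cd4, which some dendritic cells also make, differed by -1.29 ± 0.15. Ubash3a was the gene called higher.

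Genes of natural killer cells and dendritic cells followed the same direction with more exceptions. Of 18 natural killer and cytotoxic genes 14 were lower and 2 higher, with a median of -1.47. Eomes, a factor of natural killer and memory T cells, was at 6.30, 6.44 and 6.46 in bone marrow, against 7.69 to 8.53 in spleen. Nkg7, a cytotoxic granule protein that is also in the primary granule list, was higher by 1.21 ± 0.15. Ncr1, which encodes NKp46, was not called at -0.37 ± 0.23. Of 18 dendritic cell genes 14 were lower and 2 higher, and on the deposited scaling 9 were lower. Xcr1, the receptor of cross-presenting dendritic cells, differed by -2.71 ± 0.16, and the integrin gene Itgax, CD11c, by -1.89 ± 0.13. Siglech, a marker of plasmacytoid dendritic cells, was at 8.25, 8.07 and 8.12 in bone marrow and at 7.57 to 8.43 in spleen, and was not called (0.13 ± 0.15, adjusted p = 0.479). Mgl2, a lectin of some dendritic cells and macrophages, was higher by 1.94 ± 0.15.

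Antigen presentation genes were lower in bone marrow with tight groups. Of 20 tested 19 were lower and 1 higher, with a median of -1.69. H2-Aa, the alpha chain of the class II molecule I-A, was at 10.85, 11.17 and 11.14 in bone marrow, against 13.64 to 14.01 with a median of 13.90 in spleen. H2-Eb1 differed by -3.36 ± 0.09, the peptide loading gene H2-DMb2 by -3.61 ± 0.09 and the invariant chain gene Cd74 by -2.12 ± 0.06 (adjusted p = 4.45e-11, 1.84e-11 and 8.48e-11). The exception, Cd80, a costimulator, was called by a narrow margin at 0.23 ± 0.10 (adjusted p = 0.0486), with overlapping groups and other probe sets that reached -0.89. Its direction is not settled.

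Promoters of H2-Aa and H2-Eb1 are shown because class II genes share a compact block upstream of the start, of which the Y box, CTGATTGG, binds NF-Y. They are the 200 bases before the start in GRCm38.p6, at chr17:34287824-34288023 (minus strand) and chr17:34305667-34305866 (plus strand), with the Y box in capitals.
H2-Aa: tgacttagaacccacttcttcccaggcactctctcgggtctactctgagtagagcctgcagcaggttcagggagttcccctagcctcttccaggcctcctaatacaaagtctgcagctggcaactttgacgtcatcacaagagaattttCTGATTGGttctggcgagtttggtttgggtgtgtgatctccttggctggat
H2-Eb1: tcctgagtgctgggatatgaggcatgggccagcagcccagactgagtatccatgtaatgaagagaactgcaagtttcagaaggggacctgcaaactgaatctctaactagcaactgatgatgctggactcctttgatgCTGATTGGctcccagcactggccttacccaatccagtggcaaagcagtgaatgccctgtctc

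The match began at -51 from the start in H2-Aa and at -62 in H2-Eb1. It was found in 6 of 14 promoters of the antigen presentation list, against 4.07% of all promoters of the table. These are sequences of the reference genome, not of B6C3F1 mice.

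Macrophage genes went different ways. Red pulp macrophages recycle iron from red cells and depend on Spic, while macrophages at the marginal zone catch particles from blood. Marco, a scavenger receptor of the marginal zone, was at 4.45, 5.40 and 4.87 in bone marrow, against 10.56 to 11.44 with a median of 10.96 in spleen. The log2 difference was -6.07 ± 0.21 (adjusted p = 2.51e-10). Cd209b, the lectin SIGN-R1 of the same cells, differed by -2.38 ± 0.30 and the phosphatidylserine receptor gene Timd4 by -2.38 ± 0.20. The marginal zone list as a whole was mixed, with 4 of 7 lower, 2 higher and a median of -0.411, and its highest member was at 1.07. Red pulp genes had 10 of 22 lower, 3 higher and a median of -0.278. Spic itself differed by -0.96 ± 0.19, and the heme oxygenase gene Hmox1 by -1.89 ± 0.27 with bone marrow values of 8.24, 9.61 and 8.78 against 10.33 to 11.38 in spleen.

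Several macrophage genes were not lower in bone marrow. Vsig4, a complement receptor of tissue macrophages, was at 7.10, 7.38 and 7.05 in bone marrow, against 4.36 to 5.66 in spleen, a difference of 2.26 ± 0.24. Cd163, the hemoglobin scavenger receptor, was not called at 0.42 ± 0.21, and was called higher without spleen array 3. Vcam1, the adhesion molecule that these macrophages share with stroma, differed by -0.66 ± 0.12, a call lost on the deposited scaling. On the deposited values the red pulp list had 7 genes higher and 6 lower and a median of 0.05, so the direction of the list as a whole is not settled.

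Genes of the spleen's own stroma were among the lowest in bone marrow. Tlx1, Nkx2-5, Wt1 and Tcf21 are transcription factors of the mesenchyme from which the spleen forms. Tcf21 was at 3.45, 3.66 and 3.49 in bone marrow, against a lowest of 9.71, a median of 10.73 and a highest of 10.996 in spleen. A second Tcf21 probe set differed by only -0.92. Tlx1 was at 5.42, 5.24 and 5.49 in bone marrow and at 7.43 to 8.19 in spleen. Of 7 such genes 6 were lower and 0 higher. The count depends in part on the filter on dim genes, which Tcf21 passed through spleen alone. The 2 members left out as dim differed by -0.736 and 0.26. Wt1, at -3.08 ± 0.24, is also made by mesothelium, whose marker genes varied among the spleens.

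Follicle and lymphoid stroma genes held the 2 largest negative differences among all genes tested. Cxcl13, the chemokine by which stromal cells draw B cells into follicles, was at 3.94, 4.19 and 3.88 in bone marrow, against 12.07, 12.61 and 12.85 as the lowest, median and highest values in spleen. The log2 difference was -8.55 ± 0.15 (adjusted p = 2.33e-12). Coch, which encodes cochlin, a secreted protein of follicular dendritic cells in the mouse, was at 3.83, 4.00 and 3.87 in bone marrow and at 11.70 to 12.72 in spleen. Mfge8, by which follicular dendritic cells tag dying cells, differed by -4.60 ± 0.14, and Madcam1, the addressin of the marginal sinus, by -4.29 ± 0.17. Of 12 tested 9 were lower and 2 higher. The exceptions were Ltbr and Bst1, which myeloid and precursor B cells also make.

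Others of the 15 largest negative differences lie in no list of one cell type. They include Hs6st2, which sulfates heparan chains, at -5.84 ± 0.28, the matrix genes Hmcn1, Dpt and Smoc2 at -5.10, -4.95 and -4.58, and Lrat, which esterifies vitamin A, at -4.73 ± 0.12. Il33, an alarm cytokine held in the nuclei of stromal cells, differed by -4.64 ± 0.14, and Ackr3, a scavenging receptor of Cxcl12, by -4.81 ± 0.17. Efemp1, a matrix protein, had a wide spread in spleen, with 6.82 to 10.25 in spleen against 3.44, 3.47 and 3.65 in bone marrow.

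Endothelial genes were lower in bone marrow, with 19 of 25 lower, 1 higher and a median of -0.974. Plvap, which forms the diaphragms of fenestrated vessels, was at 8.08, 8.44 and 8.50 in bone marrow, against 11.02 to 11.52 in spleen (log2 difference -3.02 ± 0.12). Stab2, a scavenger receptor of sinusoids in both tissues, differed by -2.04 ± 0.15, Kdr, a receptor of VEGF, by -1.18 ± 0.10 and Pecam1 by -1.08 ± 0.13. Cdh5, the cadherin of endothelial junctions, was not called (-0.12 ± 0.11, adjusted p = 0.32). The single gene called higher among those tested was Vwf, at 10.58, 10.55 and 10.72 in bone marrow against 8.37 to 9.05 in spleen. Von Willebrand factor is made by megakaryocytes as well as endothelium, and Vwf is a member of both lists. Emcn, a sialomucin of sinusoidal endothelium, was left out as dim, and differed by 2.19 with means of 6.75 in bone marrow and 4.55 in spleen (adjusted p = 1.09e-07 with no filter).

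Smooth muscle genes were lower in bone marrow, with 9 of 15 called lower and 2 higher. Myh11, smooth muscle myosin, was at 4.21, 4.02 and 4.20 in bone marrow, against 8.22 to 9.01 in spleen, and Tagln differed by -4.43 ± 0.17. Acta2, which pericytes and fibroblasts also make, differed by -2.29 ± 0.17.

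Matrix genes went in opposite directions by protein. Of 30 tested 8 were higher and 14 lower, and the median was -0.07. Without bone marrow array 2 the count higher was 5. Col1a1, a chain of the fibrillar collagen of bone and tendon, was at 13.94, 13.63 and 13.92 in bone marrow, against 8.38 to 9.72 with a median of 9.10 in spleen, a difference of 4.72 ± 0.24 or 26.3-fold. Lum, a collagen-binding proteoglycan, was higher by 4.53 on the log2 scale. Col3a1, the collagen of reticular fibres, was lower at -1.58 ± 0.33, with 9.64, 9.51 and 9.76 in bone marrow and 10.09 to 12.11 in spleen. Tnxb, an elastic matrix protein, differed by -3.63 ± 0.18 and Igfbp7, a secreted protein rich in vessels, by -3.42 ± 0.17. Dcn was not called at 0.37 ± 0.47, and its spleen values ran from 8.52 to 11.15.

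**Figure D4:**
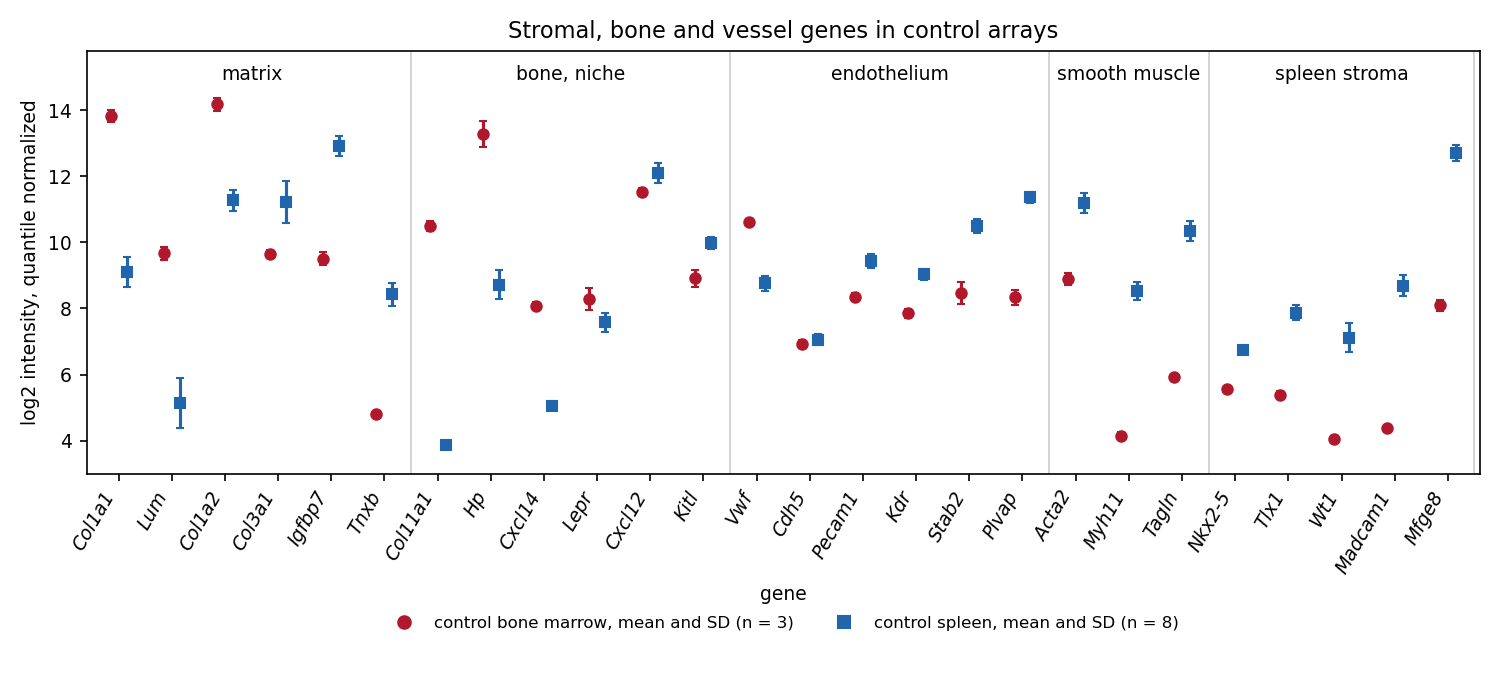
Mean log2 intensity with SD (vertical axis) of matrix, bone, niche, vessel, smooth muscle and spleen stroma genes (horizontal axis) in control bone marrow (red circles, left, n = 3) and control spleen (blue squares, right, n = 8). Col1a1, Lum, Col11a1, Hp, Cxcl14 and Vwf lie higher in bone marrow, the means of Cdh5 are close, and smooth muscle and spleen stroma genes lie lower.

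Bone genes were higher. All 7 tested were called higher, with a median of 1.36. The count depends in part on the filter, which Col11a1 passed through bone marrow alone and which left out the 6 members given below. Col11a1, a minor fibrillar collagen of bone and cartilage, was at 10.47, 10.37 and 10.64 in bone marrow, against 3.78 to 3.92 in spleen, a difference of 6.62 ± 0.07 (adjusted p = 7.29e-15). The osteoblast factor gene Sp7 differed by 1.38 ± 0.10 and Alpl, bone alkaline phosphatase, by 1.36 ± 0.10. Of 11 cartilage genes 8 were dim, and 2 of the 3 tested were higher. Col2a1, the main cartilage collagen, was at 9.54, 9.82 and 9.76 in bone marrow and at 4.98 to 5.58 in spleen. The cartilage list had a median level of 4.76 to 5.41 over the bone marrow arrays, against 4.77 to 4.96 over the spleens, so the list as a whole did not stand apart. Osteoclast genes were mixed. Ctsk, the collagen-degrading protease of osteoclasts, differed by 2.03 ± 0.23, while Acp5, an acid phosphatase that spleen macrophages also make, was lower at -0.68 ± 0.15, a call lost on the deposited scaling.

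Of 20 bone genes listed, 6 with a probe set were left out of the test as dim by their mean over the 11 arrays, of which 8 are spleen. Among them, Dmp1 of osteocytes had means of 9.37 in bone marrow and 3.90 in spleen, Ibsp, bone sialoprotein, 8.65 and 3.86, and Phex 7.58 and 3.21. The differences of the other 3 dim members were 1.21 for Dlx5, 0.31 for Sost and -0.02 for Mepe, which was at 4.93 in bone marrow and 4.95 in spleen. With no filter the collagenase gene Mmp13 differed by 5.27 (adjusted p = 5.59e-12) and the Wnt inhibitor gene Wif1 by 5.15 (adjusted p = 9.37e-14). These genes were chosen after their values were seen. Of the 5458 dim genes, 254 were at least 2-fold higher and 114 at least 2-fold lower with no filter.

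Marrow niche genes, those of the stromal cells that hold stem cells, were divided. Of 16 tested 9 were higher and 5 lower, with a median of 0.599. Cxcl14, a chemokine of the CXC family, was at 7.92, 8.14 and 8.15 in bone marrow, against 4.92 to 5.24 in spleen. Ebf3, a factor of these stromal cells, differed by 2.91 ± 0.12, and the leptin receptor gene Lepr, their common marker, by 0.70 ± 0.18 with overlapping groups. Hp, haptoglobin, differed by 4.55 ± 0.26 and is also made by neutrophil precursors. Kitl, stem cell factor, was lower at -1.07 ± 0.12, and Il7 at -1.77 ± 0.17. Adipoq was at 9.23, 9.98 and 10.26 in bone marrow and at 4.19 to 10.20, median 4.90, in spleen, where array 4 held the highest value. Its difference was 4.08 ± 1.10, and 4.73 without spleen array 4.

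The chemokine Cxcl12 and its receptor Cxcr4, which keep stem cells and neutrophils in the marrow, were read together. Cxcr4 was at 11.33, 11.47 and 11.63 in bone marrow, against 9.73 to 10.68 in spleen (log2 difference 1.33 ± 0.19, adjusted p = 6.16e-05). Cxcl12 was at 11.39, 11.62 and 11.59 in bone marrow and at 11.45 to 12.38, median 12.18, in spleen (-0.56 ± 0.17, adjusted p = 0.0121). The groups overlapped for Cxcl12, and its probe sets ran from -0.56 to 1.24, so its direction is not settled. Its call was also lost without bone marrow array 1. The homing receptors as a whole had 8 of 28 higher and 15 lower. Ccr1 and Cxcr2 of myeloid cells were higher, and Ccr7 and S1pr1, by which lymphocytes enter T cell zones and leave lymphoid organs, were lower at -2.36 ± 0.15 and -2.27 ± 0.13.

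Among growth factors 10 of 22 were lower and 5 higher. Lta and Ltb, the lymphotoxins that maintain follicular stroma, differed by -2.60 ± 0.17 and -2.35 ± 0.17. Angpt1, a ligand of the receptor Tek, was higher by 1.67 ± 0.12. Among complement genes 10 of 15 were lower and 2 higher. The proenzyme genes Cfb and C1s1 differed by -2.98 ± 0.14 and -3.32 ± 0.17, while the receptors of myeloid cells Itgam and C5ar1 were higher by 3.70 ± 0.19 and 3.65 ± 0.16.

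Glycolysis genes were higher in bone marrow. Of 19 glycolysis genes 13 were higher and 1 lower, with a median of 0.916. Hk3, a hexokinase of myeloid cells, was at 11.20, 10.94 and 10.99 in bone marrow, against 7.64 to 8.22 in spleen. The lactate exporter gene Slc16a3 differed by 2.37 ± 0.13 and the regulator gene Pfkfb4 by 2.13 ± 0.12, while the glucose transporter gene Slc2a1 was lower at -0.69 ± 0.17, a call lost on the deposited scaling. Of 11 oxidative burst genes 6 were higher and 1 lower, with a median of 0.487. Among them the phagocyte oxidase subunit gene Cybb differed by 1.71 ± 0.15 and Ncf1 by 1.39 ± 0.20. Ribosome biogenesis genes had 0 of 20 higher and 12 lower, with a median of -0.276, and on the deposited scaling 5 higher and 3 lower. Oxidative phosphorylation genes had 11 of 27 higher and 3 lower and a median of 0.129, within the shift that the scaling alone gives. On the deposited scaling 24 were higher and 0 lower, and without bone marrow array 2 the count higher was 7. Granulocyte genes were also higher in bone marrow, and their part in the glycolysis result was not tested.

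Genes that respond quickly to stimulation or stress were split as well. Of 23 immediate early genes 8 were higher and 12 lower, with a median of -0.363. On the deposited scaling 10 were higher and 9 lower and the median was 0.067, so the direction of the list is not settled. Egr1 was at 7.57, 7.84 and 7.91 in bone marrow, against 9.10 to 9.86 in spleen (-1.80 ± 0.14), and Egr3 differed by -3.65 ± 0.17. Fos went the other way, at 1.08 ± 0.18, and Fosl2 rose by 2.55 ± 0.17. Among hypoxia-inducible genes 6 of 23 were higher, led by Egln3 at 2.42 ± 0.13, and 9 lower, led by Ddit4 at -2.84 ± 0.32. These shares are not far from those of all genes, and the median was -0.149. On the deposited scaling 6 were higher and 6 lower. Ddit4, an inhibitor of mTORC1, was at 7.29, 7.09 and 7.17 in bone marrow and at 9.25 to 11.08 in spleen. The clock genes Nfil3 and Nr1d2 differed by 2.99 ± 0.18 and -1.67 ± 0.21, and the first is also a factor of myeloid and lymphoid cells. Harvest times are not given in the sources used here.

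Of 21 homeobox genes, which pattern the embryo, 8 were higher and 5 lower, shares near those of all genes. Hoxa9 and Hoxd9 were higher in bone marrow by 0.75 ± 0.11 and 0.81 ± 0.08, with groups that did not overlap. Nkx2-3, a factor of spleen and gut mesenchyme and vessels, was at 6.68, 6.76 and 6.56 in bone marrow and at 8.71 to 9.11 in spleen, a difference of -2.21 ± 0.09.

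The tissue difference was measured again in arrays that the control comparison did not use, 4 of bone marrow and 8 of spleen from mice kept under reduced oxygen for 2 hours. Here 62.5% of genes were called in either direction, and 757 genes were at least 2-fold higher (5.94%) and 874 lower (6.86%). Of the genes at least 2-fold apart in control arrays and tested in both, 946 of 971 higher genes and 1053 of 1063 lower genes were called the same way, and 0 and 1 the opposite way. At least 2-fold and the same way in both were 1455 genes, 71.5% of the control calls and 91.4% of those under reduced oxygen. Coch differed by -8.34, Cxcl13 by -8.09, Epx by 6.31 and Vpreb1 by 6.10 in the reduced oxygen arrays.

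Some lists had other medians under reduced oxygen. The medians were 3.80 for later granule genes, against 4.73 in control arrays, 0.844 for mitosis genes, against 1.44, and -0.08 for immediate early genes, against -0.363. Egr1 differed by -0.19 (adjusted p = 0.312) and Egr3 by -1.75 in the reduced oxygen arrays. S1pr3, a receptor of marginal zone B cells, differed by 0.44 there (adjusted p = 0.416) and by -1.72 ± 0.14 in control arrays. Whether these values differ between the comparisons was not tested. Col1a1 differed by 5.34 and Lum by 5.73 in the reduced oxygen arrays.

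**Figure D5:**
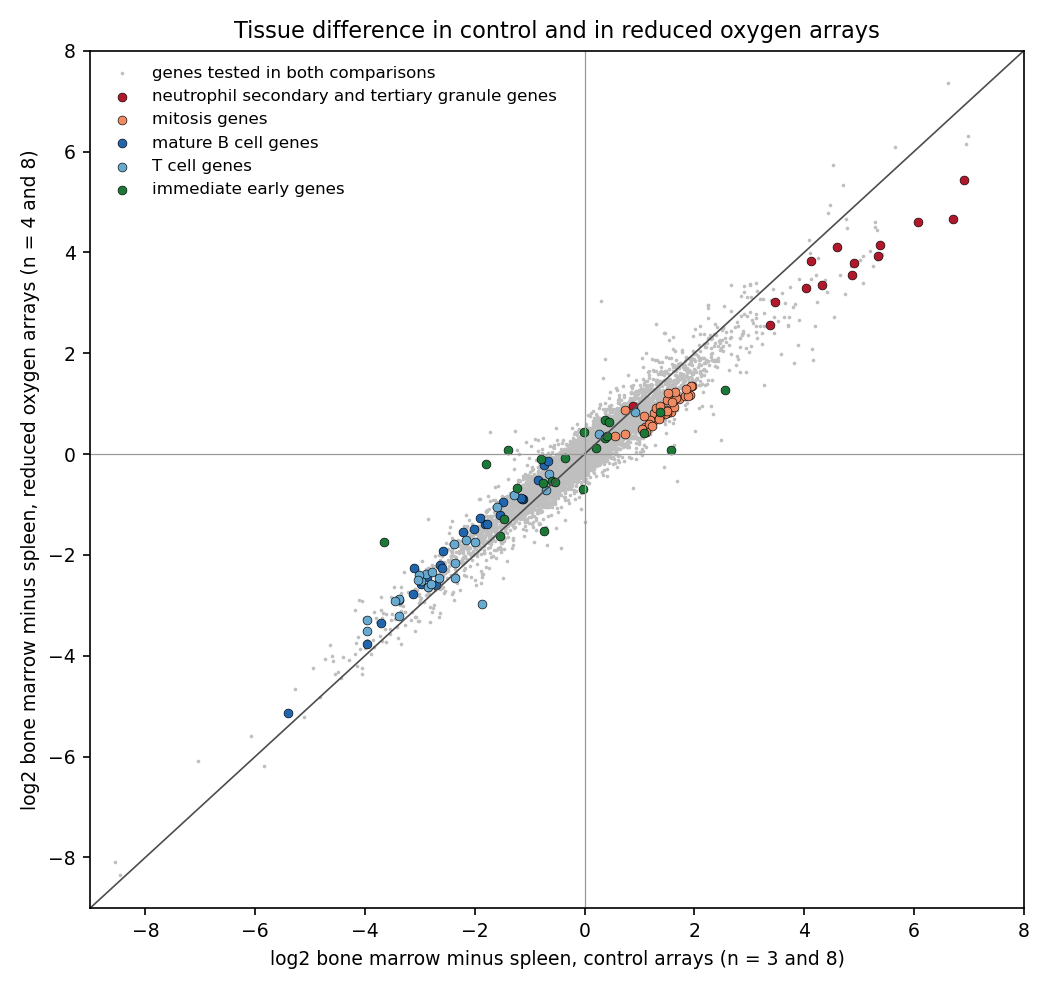
Log2 difference, bone marrow minus spleen, in reduced oxygen arrays (vertical axis, n = 4 and 8) against that in control arrays (horizontal axis, n = 3 and 8), 1 point per gene tested in both, with members of 5 lists coloured and the line of equal differences. Most genes lie along the line, granule and mitosis genes lie under it on the right, and Egr1 and Egr3 lie above it on the left.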

How the data were processed

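RNA was measured on Affymetrix mouse arrays, 1 array per sample. The deposited values are intensities per probe set on a linear scale, and the submitters' processing notes name RMA and limma. Arrays of a tissue had almost the same distribution of values, and those of different tissues did not. Deposited intensities were turned to log2, the 11 control arrays were quantile normalized together, and 1 probe set per gene was kept, that with the highest mean. Of 18193 named genes, 5458 with a mean under the 30th percentile were left out, and 12735 were tested with limma 3.58.1 in R 4.3.3 (lmFit and eBayes, Benjamini-Hochberg adjustment, threshold 0.05), without a block. A gene dim in 1 tissue could pass the filter only through the other tissue, so list counts depend in part on it. Standard errors are limma's. The number of arrays limits the precision. On simulated data with 200 changed genes among 12735, limma recovered 89% of 2-fold and 98% of 4-fold changes, with 14 false calls. The simulated noise was independent between genes and few genes changed, whereas 62.3% were called in the data. These shares therefore need not hold for the data. Candidates for naming were 351 genes. They include the 15 genes of largest difference in each direction, whose groups do not overlap and that have a standard symbol. They also include the anchor genes of each list and up to 4 called members of each list in each direction. Genes of several lists that go against most called members of one complete them. The text names only some of the candidates, and that choice followed no stated rule. Cma1, Ctsc, Dlx5, Dmp1, Emcn, Fcer1a, Mepe, Mmp13, Phex, Siglecf, Sost, Tpsb2 and Wif1 were named after their values were seen. The members and the gene lists were chosen with earlier results of these data known. Promoter sequences are from RefSeq (GRCm38.p6). Alternatives were other scalings, filters, probe set rules and tests, sets of spleens, a replicate block and leaving out each array. Liver arrays were not used here.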

Additional observations from a re-analysis of the deposited data

Results flagged for a closer look

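Among the 8 spleens, 1 array lay far from the others for 10 of 188 genes named and for 2 of 55 gene lists, by a gap to the nearest array above Dixon's critical value. Chance alone sets apart about 1 in 20 such groups. The median level of the pancreatic acinar genes was 12.99 in spleen 5, and that of the plasma cell and immunoglobulin genes was 8.70 in spleen 2. Spleen 2 was also apart for Angpt1 at 6.20, Ctsk at 6.23, Gfi1 at 6.04 and H2-Aa at 13.64. Spleen 3 was apart for Cd163 at 8.17, spleen 4 for Fabp4 at 11.10, spleen 7 for Myb at 9.49, and spleen 5 for Dlx5 at 5.25, Rag2 at 4.76 and Tnxb at 9.18.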

How the results depend on the processing

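On the deposited scaling 6275 genes were called higher in bone marrow, against 3943 after joint normalization. With genes under the 50th percentile left out, 2514 genes were called higher and 630 at least 2-fold higher. Leaving out each array in turn gave 3208 to 4283 genes higher, 3578 to 4194 lower, 869 to 1082 at least 2-fold higher and 1068 to 1159 at least 2-fold lower. A filter on the mean of both tissue means, chosen after seeing the data, gave 4100 higher and 3848 lower. Both tissues have arrays numbered 1 to 3, but the deviations of same-numbered arrays correlated at 0.0765, 0.311 and -0.0294, and that of arrays 2 was the highest of all 24 pairs. The labels do not say whether equal numbers mark a shared mouse, and these values do not settle it, so the arrays were not taken as pairs. With a replicate block on these numbers 3707 genes were higher and 3366 lower, 849 and 944 of them at least 2-fold. In that fit the tissue difference rests on arrays 1 to 3 of both tissues, since the other spleens have no bone marrow array of their number. The block gave 23 mitosis genes higher with a median of 0.70, against 30, and 9 replication genes with a median of 0.256, against 16. Of 172 named genes, 152 kept their direction and side of the threshold under every alternative in which they were tested. Not every gene was tested in each, and with the filter at the 50th percentile only 131 were. For the 20 genes that did change, 51 values lost and 29 gained a call, and Cxcl12 was at 0.55 with the mean of its probe sets. Calls of Fabp4 were lost without bone marrow array 2 or 3. Probes not above background cannot be told from the deposited values, and differences of dim genes may be understated.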
